A study of Mus musculus with 6 samples.

Results

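The Irf4 locus was defined as the interval of mouse chromosome 13 from 30750000 to 31050000 (build mm9), which takes in Irf4 and the flank beyond it that reaches into Exoc2. Every T-bet peak overlapping this 300 kb interval was a member. The 3 deposited peak lists together hold 8925 peaks, of which 21 lay in the interval: 16 of 7996 in wild-type (WT) replicate 1, 5 of 851 in WT replicate 2, and 0 of 78 in the T-bet knockout (KO) library. The members were chosen by position alone, but the interval itself was selected on the peaks and scores of these lists, so its counts, scores and overlaps are described without a test.

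T-bet belongs to the T-box family of transcription factors and drives T helper 1 differentiation, and a subset of regulatory T cells also expresses it. Irf4 encodes interferon regulatory factor 4, a transcription factor induced by T-cell receptor signalling. It binds DNA largely together with partners such as BATF and JUN proteins, and regulatory T cells need it to acquire an effector phenotype. Of its neighbours, Dusp22 encodes a phosphatase that restrains T-cell receptor signalling, and Exoc2 a subunit of the exocyst, the complex that tethers secretory vesicles to the plasma membrane.

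T-bet was precipitated from induced regulatory T cells (iTreg cells) of Balb/c mice aged 4 to 10 weeks. All libraries, KO included, came from naive CD4+CD25- T cells (CD62L high, CD44 low) stimulated through CD3 and CD28 by antibodies fixed to the plate at 10 µg/ml. They were then cultured for 7 days in IL-2 at 20 ng/ml together with human TGF-β1 at 33 ng/ml. These cells acquired the regulatory fate in culture, and peak lists hold no expression by which it could be checked. The same rabbit serum against T-bet was used in WT and T-bet-KO cells, so the KO list gives the background of the serum. The labels give no T-bet-KO allele, and no number of mice or cultures behind a library, so agreement between the 2 WT libraries may measure technical spread. Sequencing depth is unknown for all 3 lists. The names of the deposited lists begin with a number that replicate 2 and KO have in common and replicate 1 does not. What it stands for is not stated, so a run or batch effect and a replicate difference cannot be told apart. Each peak carries the score the authors' peak caller gave it, which ranks peaks within a list and was not compared in size between lists.

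No genome or annotation of build mm9 was used here, so the peaks were not assigned to promoters, exons or introns, and their own sequences are not shown. In the RefSeq gene table of another build (GRCm38.p6), which was used for gene order only, the protein-coding genes Dusp22, Irf4 (gene ID 16364) and Exoc2 follow one another by their lower ends, and Hus1b lies within the span of Exoc2. The regulatory sequence at hand is the Irf4 promoter of RefSeq, the 250 bases before the gene's start on the plus strand of GRCm38.p6 (chr13:30748983-30749232). It is shown as the sequence of the locus that was searched for T-box letters, and its position cannot be set against the mm9 peaks. It is printed wholly in lower case, because none of the motifs searched occurs in it.
Irf4 promoter: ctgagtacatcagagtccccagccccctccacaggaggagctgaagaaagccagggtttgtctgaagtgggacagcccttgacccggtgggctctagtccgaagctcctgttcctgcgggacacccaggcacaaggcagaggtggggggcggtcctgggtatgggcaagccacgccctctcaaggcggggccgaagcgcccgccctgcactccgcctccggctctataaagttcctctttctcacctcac

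The search covered both strands of 300 bases around each RefSeq start. The T-box letters AGGTGTGA, whose reverse complement is TCACACCT, were absent from all 5 promoters of Dusp22, Irf4, Exoc2 and Hus1b, and present in 1.28% of 32851 mouse promoters. The shorter core GGTGTG, which lies within AGGTGTGA, occurred in 1 of the 5, a promoter of Exoc2, and in 19.0% of all promoters. A pair of GAAA elements, the letters that IRF proteins contact, with 2 bases between them, occurred in 1 of the 5, another promoter of Exoc2, and in 3.44% of all. The absence of these letters says nothing about binding elsewhere in the locus.

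The T-bet peaks of the locus were spread over 137 kb in replicate 1, from 30818843 to 30955973, and over 96.2 kb in replicate 2, from 30859622 to 30955847. Both WT lists placed their highest peaks at the same pair of sites, and 4 sites were occupied in both lists. The KO list had no peak in the interval. On chromosome 13 it held 4 peaks in all, and the one nearest to the interval lay 5.85 Mb away, from 36899866 to 36900197, with a score of 104. With 1 KO library there is no replicate check. The list was also short: 99.3% of all 300 kb windows of the genome held no KO peak, so its absence here is what most windows show.

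**Figure D1:**
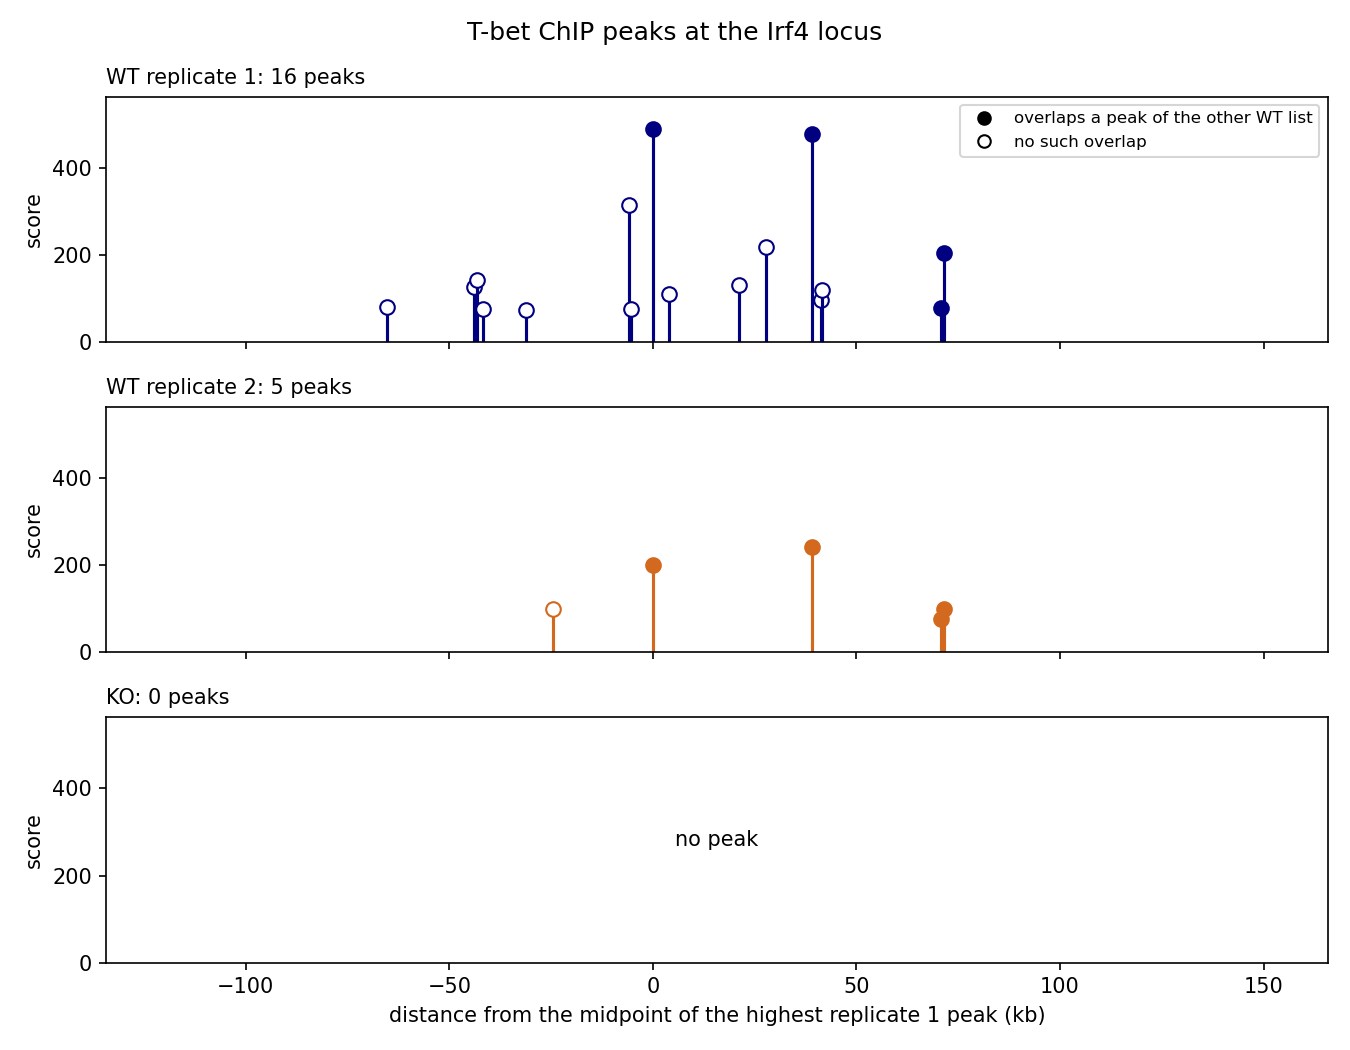
Peak scores at the Irf4 locus in the 3 lists, with distance from the midpoint of the highest replicate 1 peak on the horizontal axis (kb) and the deposited score on the vertical axis; each stem is a peak, filled where it overlaps a peak of the other WT list. The 4 shared sites, filled in both WT panels, include the reference peak as the leftmost. They span 71.9 kb in replicate 1, counted rightward from its start, and the KO panel is empty.

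Site 1 of the 4 shared sites, numbered along the chromosome, held the highest replicate 1 peak of the locus, from 30884063 to 30884511, with a score of 491. Replicate 2 had a peak from 30884046 to 30884580 there, with a score of 201, the second highest of its members. The replicate 1 peak lay wholly within the replicate 2 peak, and their midpoints were 26.0 bp apart.

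At site 2, replicate 1 had a peak from 30923042 to 30923621 with a score of 479. The replicate 2 peak, from 30923048 to 30923640, scored 242 and was the highest of its members. The 2 peaks shared 574 bp, which is 99.0% of the first and 96.8% of the second, with midpoints 12.5 bp apart. The order of sites 1 and 2 was thus opposite in the 2 lists, though their replicate 1 scores (491 and 479) lay close together.

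These 2 sites ranked high in both libraries as a whole. In replicate 1, 97.7% and 97.6% of all peaks scored lower than site 1 and site 2. In replicate 2 the figures were 85.5% and 91.3%.

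Sites 3 and 4 formed a close pair. At site 3 replicate 1 had a peak from 30954883 to 30955056 with a score of 78.7, and replicate 2 a peak from 30954880 to 30955246 with a score of 76.6. At site 4 replicate 1 had a peak from 30955596 to 30955973 that scored 206, and replicate 2 a peak from 30955576 to 30955847 that scored 99.4. The gap between the sites was 539 bp in replicate 1 and 329 bp in replicate 2. Each list thus gave site 4 the higher score. Site 3 was weak in both lists, with 12.2% of replicate 1 peaks and 11.9% of replicate 2 peaks scoring lower. For site 4 the figures were 83.6% and 43.8%.

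Peaks of the close pair matched less tightly than those of sites 1 and 2. At site 3 the replicate 1 peak covered 47.4% of the wider replicate 2 peak, and at site 4 the 252 bp in common made up 66.7% of the replicate 1 peak. Pairs with each peak met by a separate replicate 2 peak were few. The locus held 4 pairs of replicate 1 peaks with under 1 kb between them, and this was the only pair of the 4 in which each peak met its own replicate 2 peak. Over the whole replicate 1 list, 14 of 739 such pairs did so, or 1.89%. Only 9.50% of all replicate 1 peaks met any replicate 2 peak, so this share does not measure how pairs with a counterpart were resolved.

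**Figure D2:**
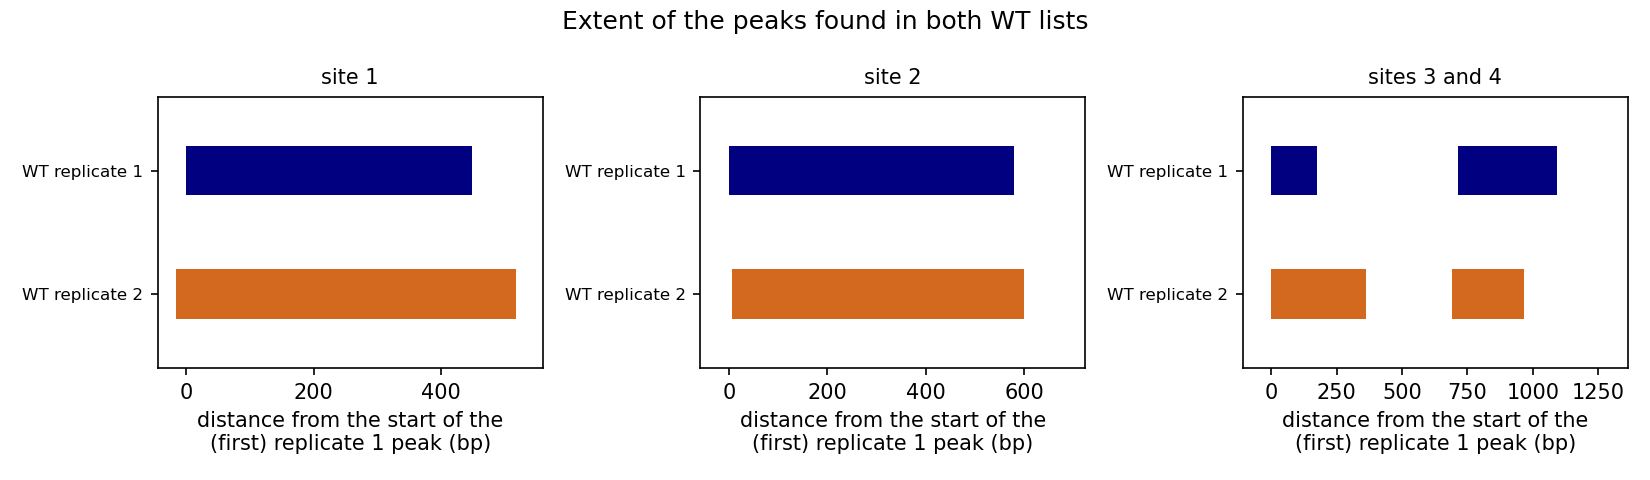
Extent of the overlapping peaks at the 4 shared sites, with distance from the start of the replicate 1 peak on the horizontal axis (bp, scaled separately in each panel) and the WT replicates as rows; each bar is a peak. The bars nearly coincide at site 2, with 574 bp in common, and both lists split the last region into 2 peaks.

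The remaining 12 replicate 1 peaks had no counterpart in replicate 2. Their scores ranged from 73.6 to 316, with a median of 116, against 78.7 to 491, with a median of 342, for the 4 shared peaks. The ranges overlapped. A replicate 2 peak was met by 4 of 16 replicate 1 members, or 25.0% (95% exact binomial interval 7.27 to 52.4%), against 9.50% of the whole replicate 1 list. Conversely, a replicate 1 peak was met by 4 of the 5 replicate 2 members, or 80.0% (28.4 to 99.5%), against 85.4% of the whole replicate 2 list. The intervals cover counting error over the few members only, and no difference from the lists was tested. None of the members met a KO peak, against 0.550% of all replicate 1 peaks and 5.41% of all replicate 2 peaks. The 4 shared sites free of a KO peak were 25.0% of the replicate 1 members, against 9.08% of the whole list.

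The third highest replicate 1 peak of the locus was among those without a counterpart. It ran from 30878062 to 30878524, scored 316 and exceeded 93.4% of its list. It lay 5.15 kb before site 1, with a weak peak between them (30878761 to 30878914, score 77.7). Its lack of a replicate 2 peak was not unusual for its score: of the 528 replicate 1 peaks scoring at least as high, 53.6% (49.2 to 57.9%) met a replicate 2 peak. Site 3 was the opposite case, a weak peak with a counterpart. Of the 1022 replicate 1 peaks that scored no higher than its 78.7, 2.54% (1.67 to 3.71%) met a replicate 2 peak.

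Replicate 2 had 1 peak of its own, from 30859622 to 30859911, with a score of 99.4. The nearest replicate 1 peaks lay 6.39 kb before it and 18.1 kb after it. Its score differed little from that of site 4 (also 99.4), and 43.6% of the list scored lower. Of the 480 replicate 2 peaks that scored at least as high, 91.9% (89.1 to 94.2%) met a replicate 1 peak. This peak was the lowest of those 480, so the share describes mostly stronger peaks. Over the whole replicate 2 list the share was 85.4%, and the peak belonged to the minority in both sets.

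Joining members of all lists with gaps of at most 10 kb, a distance chosen after the positions were seen, gave 7 groups along the chromosome. Group 1 was a single replicate 1 peak from 30818843 to 30818979, with a score of 81.8. Group 2 held 3 replicate 1 peaks over 2.39 kb. They scored 127 (30840295 to 30840548), 142 (30841036 to 30841253) and 77.3 (30842546 to 30842682), and replicate 2 had no peak among them. Group 3 consisted of the lowest replicate 1 member, from 30853082 to 30853235 (score 73.6), and the replicate 2 peak described above, which did not overlap.

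Group 4, from 30878062 to 30888230, held site 1, the 2 replicate 1 peaks before it and another from 30888020 to 30888230 (score 111). Group 5 held a pair of replicate 1 peaks without a counterpart, which scored 132 (30905390 to 30905682) and 218 (30911827 to 30912107). The latter exceeded 85.1% of its list, more than site 4 did. Group 6, over 3.01 kb, held site 2, followed by 2 replicate 1 peaks that scored 96.4 (30925445 to 30925639) and 120 (30925789 to 30926051). Group 7 was the close pair of sites 3 and 4.

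Shared sites occurred in 3 of the 7 groups, all in the last 4. The first 3 groups held 5 replicate 1 peaks with scores of 73.6 to 142 (median 81.8), 1 replicate 2 peak and no shared site. The last 4 held 11 replicate 1 peaks with scores of 77.7 to 491 (median 132), 4 replicate 2 peaks and all 4 shared sites. The median of the whole replicate 1 list was 108, which 2 of the 5 peaks in the first 3 groups exceeded and 8 of the 11 in the last 4. The score ranges of the first 3 and last 4 groups overlapped, and the division was made with the values known.

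**Figure D3:**
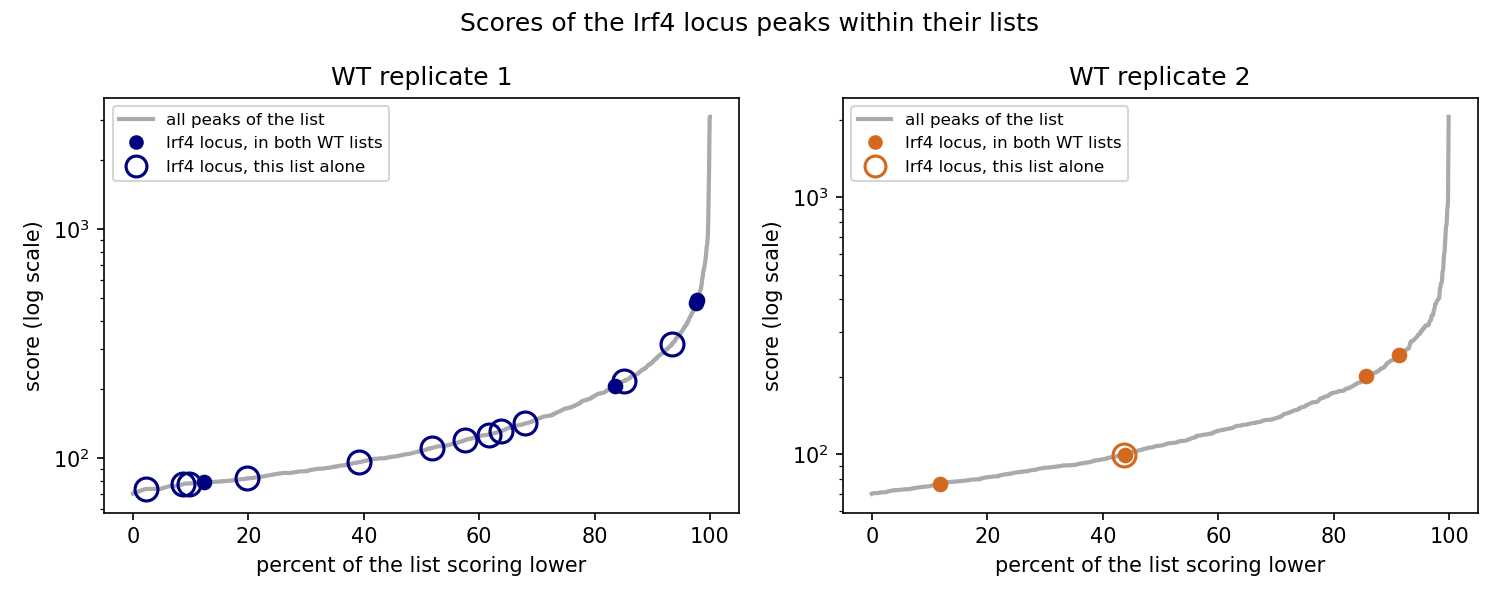
Scores of the Irf4 locus peaks within each WT list, with the percent of the list scoring lower on the horizontal axis and the score on a log scale on the vertical axis; the grey line is the whole list, filled points are peaks in both WT lists and open circles are peaks of that list alone. Shared peaks reach 97.7% in replicate 1 and 91.3% in replicate 2, and site 3 sits at 12.2% and 11.9%.

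The members included low and high scores of their lists but not the highest. The percent of the list scoring lower ran from 2.21% to 97.7% in replicate 1 and from 11.9% to 91.3% in replicate 2. In replicate 1, 10 of the 16 exceeded the list's median score, and the median of the members was 124. In replicate 2, 2 of the 5 exceeded the list's median, which was also 108, and the median of the members was 99.4. Replicate 1 members were 137 to 580 bp wide, with a median of 236 bp against 175 bp for the list. Replicate 2 members were 272 to 593 bp wide, with a median of 367 bp against 353 bp.

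The number of peaks, unlike their scores, set the locus apart from most of the genome, but the locus had been chosen for it. The interval makes up 0.249% of chromosome 13 and held 4.66% of the chromosome's 343 replicate 1 peaks and 11.1% of its 45 replicate 2 peaks. The 19 autosomes and X were divided into 8786 windows of 300 kb. At least 16 replicate 1 peaks were found in 7 of them (0.0797%), and at least 5 replicate 2 peaks in 14 (0.159%). At least 4 shared sites without a KO peak were found in 24 (0.273%). The median window held 0 peaks of either WT list, and the fullest held 21 in replicate 1 and 8 in replicate 2.

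A window placed around a cluster holds more of it than a fixed grid does. The grid split the locus: the window from 30600001 to 30900000 held 13 replicate 1 and 3 replicate 2 peaks, and the next held 8 and 3. These counts include peaks outside the interval. Joining shared sites within 50 kb gave 539 clusters in the genome. That of the Irf4 locus had 4 sites over 71.9 kb, a number that 17 clusters, or 3.15%, reached or passed, with a maximum of 6. The close pair of sites 3 and 4 counted here as separate sites.

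**Figure D4:**
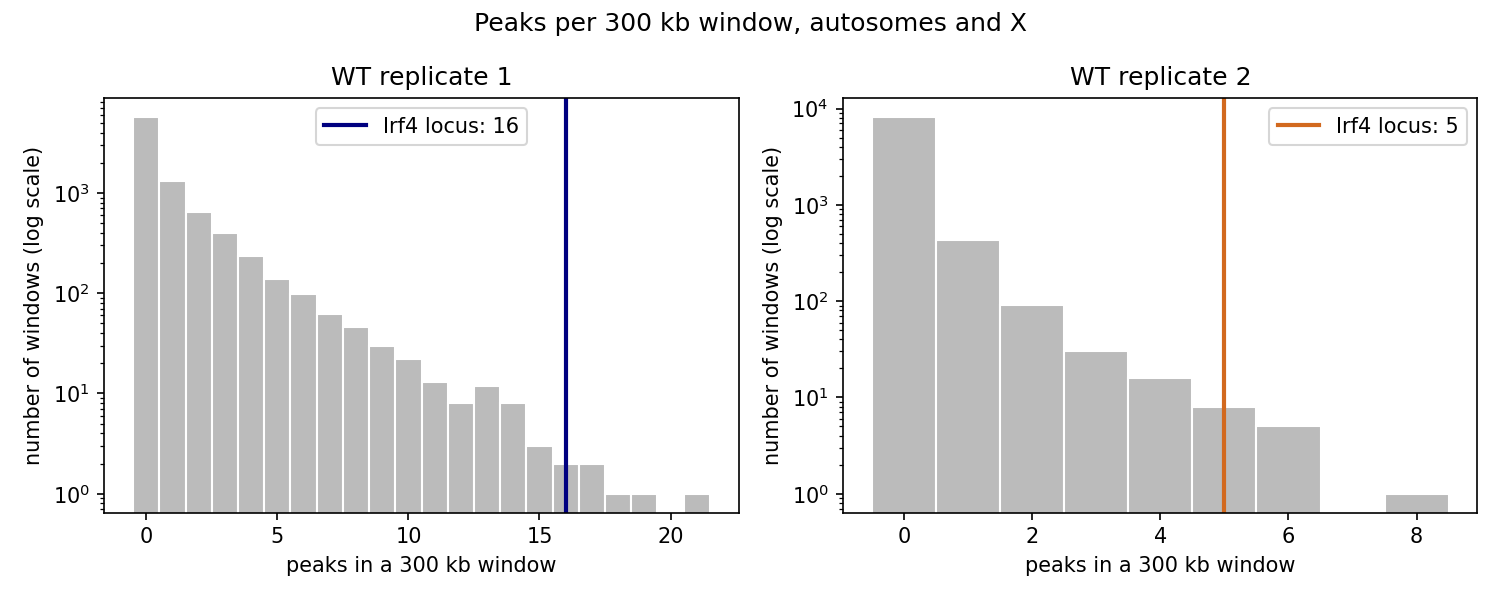
Distribution of peak counts over the 8786 windows of 300 kb, with peaks per window on the horizontal axis and the number of windows on a log scale on the vertical axis, for each WT replicate; the coloured line marks the Irf4 locus. The lines stand at 16 and 5 peaks, where 7 and 14 windows lie at or beyond them.

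The 3 windows nearest to the locus in peak counts were the only 3 of the grid, or 0.0341%, with at least as many peaks in both WT lists and no KO peak. The window on chromosome 8 from 129300001 to 129600000 had 16 replicate 1, 5 replicate 2 and 0 KO peaks, equal to the Irf4 locus in each list. The adjoining windows on chromosome 4 from 32400001 to 32700000 and from 32100001 to 32400000 had 17 and 5, and 17 and 6. These windows were picked by their peak counts, so the likeness in counts was set by that choice. The highest replicate 1 score was 491 at the Irf4 locus, 428 on chromosome 8, and 439 and 843 in the windows on chromosome 4. The highest replicate 2 score was 242 at the Irf4 locus, 240 on chromosome 8, and 107 and 332 on chromosome 4. All 5 replicate 2 peaks of the chromosome 8 window met a replicate 1 peak, as did 4 of 5 and 6 of 6 in those on chromosome 4. Conversely, 5 of 16 replicate 1 peaks of the chromosome 8 window met a replicate 2 peak, against 4 of 16 at the Irf4 locus. In the windows on chromosome 4 the counts were 4 of 17 and 7 of 17. No test of these differences was made, since each is a value of a single region.

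The interval ended well clear of its outermost members. The first replicate 1 peak inside lay 68.8 kb from the near edge, and the last 94.0 kb from the far edge. Outside, the nearest replicate 1 peaks were 7.09 kb before the interval, from 30742654 to 30742906 (score 107), and 15.2 kb after it, from 31065247 to 31065401 (score 73.6). Neither met a replicate 2 peak. A further shared site lay 38.1 kb before the interval, from 30711598 to 30711877 in replicate 1 (score 240) and from 30711601 to 30711918 in replicate 2 (score 81.3). After the interval, the next replicate 2 peak was 2043 kb away, from 33093217 to 33093574 (score 99.5).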

How the data were processed

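Each of the 3 ChIP libraries had 1 deposited peak list, called per library and not on pooled replicates. Per the submitters' processing notes, the build was mm9 and the tools included MACS 1.4, Bowtie2 and CASAVA, without settings or controls. The values are scores deposited by the authors, the lowest 70.10, on a scale not given in the sources used here. The 3 input libraries were not analysed here. Samples were grouped by their titles.

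Starts were raised by 1, so that positions count from 1. Peaks were called shared at 1 bp or more in common. Shares carry 95% exact (Clopper-Pearson) intervals. Windows of 300 kb were tiled over the mm9 chromosome lengths of GenomeInfoDb 1.38.1 (R 4.3.3). All members are named. The windows most like the locus had the smallest summed difference in peak counts over the 3 lists. Overlap counting was tested on simulated data. The interval and lists were chosen with earlier results of these data known. Scripts ran in Python 3.11.15 with scipy 1.17.1, numpy 2.4.6 and matplotlib 3.10.9. Depth is unknown, so a site missing from a list is not shown to be unbound. Alternatives tried were other overlap rules, a score minimum, merging, a narrower interval, wider KO peaks, and leaving out each WT replicate.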

Additional observations from a re-analysis of the deposited data

How the results depend on the processing

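Of 29 alternatives, 22 stayed within the limits set for a change (1.5 times for a count, the 95% interval for a share) and 7 did not. Not all of the 22 could have moved. The KO counts began at 0, and the KO filter had no KO peak in the interval to act on. Every member also lay inside the narrower interval. Requiring scores of at least 100 left 10 replicate 1 and 2 replicate 2 peaks in the interval and 2 shared sites, and 100% of the replicate 2 members then met a replicate 1 peak, on 2 peaks. Sites without a KO peak numbered 5 without replicate 1 and 16 without replicate 2. Ranked over chromosome 13 alone, the highest members exceeded 96.8% of replicate 1 and 84.4% of replicate 2 peaks. Reciprocal overlap of at least 50% removed the third shared site, leaving 3. No alternative gave a KO peak in the interval or one that met a member, and none of those tried could have. The nearest KO peak lay 5.85 Mb away. No paired analysis was possible because only input libraries carry the same replicate numbers as the WT ChIP libraries, and these were left out here. The planned gene annotation of peaks and the planned list of other IRF and partner genes were not run, since no mm9 annotation was used here. The unknown depth limits every count.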
